A study of Homo sapiens with 10 samples.

Results

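The phagocyte NADPH oxidase was described here in NB4 cells, an established line of acute promyelocytic leukemia, through 5 of its genes: CYBB, CYBA, NCF1, NCF4 and RAC2. The genes were chosen by name, as the rows annotated as protein-coding under these symbols, and all 5 were found among the 60603 genes (19975 protein-coding) that each deposited table lists. The study sequenced mRNA from 10 libraries in 2 experiments. In the GSE1 knockdown, NB4 cells were transduced with the empty lentiviral vector pLKO.1 puro (EV) or with this vector carrying the hairpin shA1 or shB2 against GSE1, and RNA was taken after 48 h, with 2 replicates in each group. In the LSD1 inhibition, NB4 cells received the vehicle DMSO or the LSD1 inhibitor MC2580 at 2 µM for 24 h, again with 2 replicates in each group. GSE1 is a subunit of corepressor complexes that hold the histone demethylase LSD1, whose gene is KDM1A. All libraries came from this single line, and every group of the knockdown experiment was transduced with the vector, with or without a hairpin.

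The oxidase makes superoxide from oxygen, with electrons taken from NADPH, and phagocytes use it to kill ingested microbes. Its catalytic core in the membrane is a pair of proteins, gp91phox (NOX2, from CYBB) and p22phox (from CYBA). On stimulation the cytosolic proteins p47phox (NCF1) and p40phox (NCF4) move to this core together with the GTPase RAC2, and electron transfer begins. The complex is acquired as myeloid cells mature, and inherited loss of CYBB, CYBA, NCF1 or NCF4 is known in chronic granulomatous disease.

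The quantity described is the base mean, the authors' average over all libraries of an experiment of gene counts divided by the size factors of DESeq2. A base mean joins control and treated cells: 4 of the 6 libraries behind each knockdown value carried a hairpin, and 2 of the 4 behind each inhibition value had received MC2580. It comes with no value per library, so no replicate spread, depth per library or counting interval can be attached to any level given here, and no difference was tested. Comparisons of shA1 or shB2 with EV and of MC2580 with DMSO were not analysed here. Both experiments were normalised separately by the authors, so levels of one experiment set beside the other are on scales of their own. Fewer cells with a transcript and less transcript per cell cannot be told apart in these bulk samples.

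Promyelocyte genes were checked first. MPO, the gene of the granule enzyme myeloperoxidase, had the highest base mean of all protein-coding genes in both experiments, at 506765 in the knockdown and 824818 in the inhibition. PRTN3 and CTSG, of the granule proteases proteinase 3 and cathepsin G, stood at 2511 and 4012 in the knockdown and at 4358 and 6435 in the inhibition, and AZU1, of the granule protein azurocidin, at 723 and 1814. ELANE, the gene of neutrophil elastase, was near 0, at 1.10 and 3.87, so that 4 of the 5 granule genes were above the middle of the protein-coding genes in base mean and 1 was not. The myeloid surface genes CD33 and ANPEP (CD13) were at 2860.1 and 47147 in the knockdown and at 2728 and 37036 in the inhibition. Of 8 markers of other cell types, CD3D was at 866 and 869 and EPCAM at 432 and 403, while CD3E, of the same T cell receptor complex as CD3D, was at 1.55 and 2.98. MS4A1, HBB, KRT19, COL1A1 and COL3A1 lay between 0 and 14.4. The genes targeted by the study were present in both experiments, GSE1 at 2963 and 4441 and KDM1A at 7648 and 6285.

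The 5 oxidase genes were all present in both experiments and spread widely. In base mean and per kilobase (kb) of coding sequence CYBA was the highest, followed by RAC2, CYBB, NCF4 and, far below them, NCF1. Of the members, 4 stood above the middle of the 17337 protein-coding genes with a base mean above 0 in the knockdown and of the 17091 such genes in the inhibition, whose median base means were 409 and 396. NCF1 lay below the median in base mean in both, but this depends on length: its percentile was 50.2 and 44.9 per coding kb and 60.1 and 53.0 per kb of mRNA, while the other members stayed above the percentile 50 on each scale. The median percentile of the 5 members among these genes was 90.2 in the knockdown and 88.1 in the inhibition, where 50 is the middle of all of them.

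**Figure D1:**
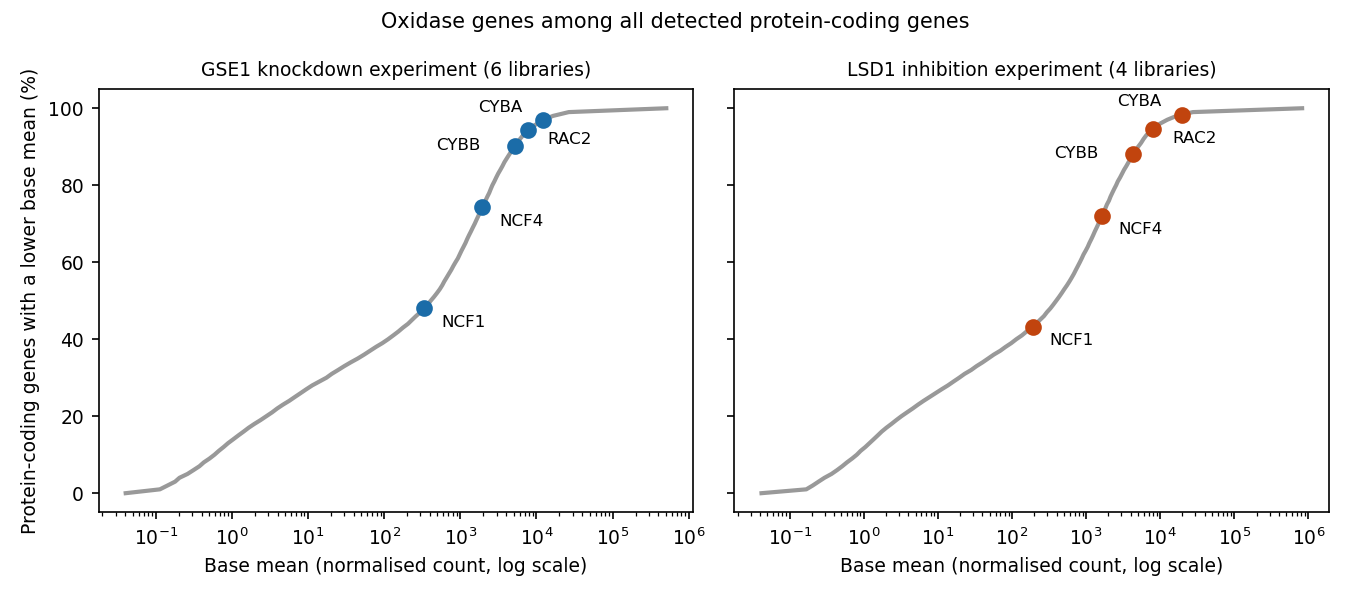
Base mean (normalised count, log axis) against the percentage of detected protein-coding genes with a lower base mean, in the 6-library knockdown experiment and the 4-library inhibition experiment. The grey line is drawn through all detected protein-coding genes, and circles mark the 5 oxidase genes. Each point is the authors' mean over libraries, with no error. CYBA, RAC2, CYBB and NCF4 sit on the upper part of both curves, between the percentiles 72.1 and 98.4, while NCF1 sits below the percentile 50.

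In the membrane core, CYBB had a base mean of 5211 in the knockdown experiment and of 4350.5 in the inhibition experiment, at the percentiles 90.2 and 88.1. CYBB (ENSG00000165168) lies on the forward strand of chromosome X at chrX:37780018-37813461 (hg38), and its main mRNA of 4276 bases in 13 exons holds a coding sequence of 1710 bases. This is the longest mRNA among the members, and most of it is untranslated. A gene named only by the identifier ENSG00000250349 overlaps CYBB on the same strand, and it was listed at 0 in both experiments.

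CYBA, whose product p22phox stabilises gp91phox and offers the docking site for p47phox, was the member with the highest base mean, at 12287 and 19927. These values put it at the percentiles 96.9 and 98.4 of the protein-coding genes, rank 531 and rank 280 from the top. CYBA (ENSG00000051523) lies on the reverse strand at chr16:88643275-88651083, with 6 exons. Its mRNA of 692 bases, with a coding sequence of 585 bases, is the shortest of the members, and 68.1% of its bases are G or C, against 40.9% in CYBB.

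A longer mRNA gives more fragments per molecule, so base means, their percentiles and their shares of a sum also reflect length, and each ratio between the levels of different genes was taken after division by length. Per kb of coding sequence, the base mean of CYBA was 21004 in the knockdown experiment and 34063 in the inhibition experiment, and that of CYBB was 3048 and 2544. The CYBA level per coding kb was thus 6.89 times the CYBB level in the knockdown and 13.4 times in the inhibition. Both proteins stand side by side in one heterodimer, but these are mRNA levels, and the amounts of protein were not measured here. Per kb of whole mRNA, a length added to the analysis after the values were seen, the same ratios were 14.6 and 28.3. Besides gp91phox, p22phox is known to pair with the chains NOX1, NOX3 and NOX4. Here NOX3 and NOX4 were listed at 0 in both experiments, and NOX1 was at 0.517 in the knockdown and 1.29 in the inhibition. Why CYBA stood above CYBB was not tested.

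CYBC1, the gene of a chaperone needed for the gp91phox and p22phox pair, had base means of 2419.9 and 2768. Its level per coding kb exceeded that of CYBB, with a CYBB level that was 0.707 and 0.516 of the CYBC1 level. Per kb of mRNA the ratio was 1.04 in the knockdown and 0.762 in the inhibition, so the order of both genes in the knockdown depends on the length used.

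Of the cytosolic members NCF4 and NCF1, NCF4 had the higher level in both experiments, by base mean and per length. NCF4, the gene of p40phox, which binds phosphatidylinositol 3-phosphate on phagosomes, had a base mean of 1942 in the knockdown and of 1650.2 in the inhibition. NCF1, the gene of p47phox, the organiser that is phosphorylated on activation and brings the others to p22phox, was at 338 and 191. Their percentiles were 74.2 and 72.1 for NCF4 and 48.0 and 43.3 for NCF1.

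Per coding kb NCF4 stood at 1910 and 1623 and NCF1 at 289 and 163. The NCF4 level was 6.62 times that of NCF1 in the knockdown and 9.95 times in the inhibition. Per kb of mRNA the same ratios were 5.63 and 8.47. The CYBB level was 10.6 and 15.6 times that of NCF1 per coding kb, but 4.87 and 7.19 times per kb of mRNA. NCF1 was the lowest of the members on every scale used.

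NCF4 (ENSG00000100365) lies on the forward strand at chr22:36860988-36878017 and its mRNA has 10 exons, 1378 bases and a coding sequence of 1017 bases. The antisense gene NCF4-AS1 overlaps 9454 bases of it. The library kit used by the authors does not keep the strand, so reads of the pair could not have been separated by strand, but NCF4-AS1 was listed at 0 in both experiments. RAC2 lies on the same chromosome, 347252 bases further along, with 9 protein-coding genes in between. These neighbours had median base means of 37.4 in the knockdown and 46.2 in the inhibition, and the highest reached 2082 and 3751.

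The value of NCF1 needs more care than those of the other members, since NCF1 has 2 near-identical copies annotated as pseudogenes, NCF1B and NCF1C. NCF1 (ENSG00000158517) lies at chr7:74774011-74789315 on the forward strand, with 11 exons, an mRNA of 1349 bases and a coding sequence of 1170 bases. NCF1B lies at chr7:73220646-73235787 on the forward strand and NCF1C at chr7:75156639-75172044 on the reverse strand. In pairwise alignment the NCF1 mRNA was 98.97% identical to the transcript NCF1B-201 over the 1167 bases aligned, with 12 substitutions, and 90 further bases fell in gaps. It was 99.41% identical to NCF1C-201 over 1347 aligned bases, with 8 substitutions and 2 bases in gaps.

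The textbook difference between gene and copies is a missing GT at the start of exon 2, and it was found in the reference genome. The windows below, read from hg38 in the direction of transcription, hold the last 10 bases of intron 1 and the first 20 bases of exon 2 or, in the copies, the matching bases. They are shown because this dinucleotide separates the functional gene from its copies, and the capitals mark the GT pairs at the exon start, 2 in NCF1 and 1 in each copy. The windows lie at chr7:74777257-74777286 (forward strand) for NCF1, at chr7:73223868-73223897 (forward strand) for NCF1B and at chr7:75168691-75168720 (reverse strand) for NCF1C.
NCF1: tttcccccagGTGTacatgttcctggtgaa
NCF1B: tttcccccagGTacatgttcctggtgaaat
NCF1C: tttcccccagGTacatgttcctggtgaaat

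Apart from the missing GT, the printed copies read like the gene, and NCF1B and NCF1C are the same over the whole window. Such stretches cover most of the transcript. Of the 1300 windows of 50 bases in the NCF1 mRNA, 83.9% also occurred in an annotated transcript of another gene, 71.5% in NCF1B (2 annotated genes carry this name, of which the one placed above is the one valued) and 67.5% in NCF1C, and of the 1250 windows of 100 bases 63.5% did so. For CYBB, CYBA, NCF4 and RAC2 no window of either length occurred in another gene. A read that lies, with any mate, wholly in shared sequence can be assigned only by the estimate of RSEM, the authors' quantification tool. RSEM divides such reads among NCF1 and its copies. The length and pairing of the reads were not taken into account in these windows.

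The copies had base means of the same order as the gene. NCF1B stood at 99.6 in the knockdown experiment and 86.1 in the inhibition experiment, and NCF1C at 184 and 103. The sum of the 3 genes was 621 in the knockdown, of which NCF1 held 54.4%, NCF1C 29.6% and NCF1B 16.0%. In the inhibition the sum was 380 (379.5), of which NCF1 held 50.3%, NCF1C 27.0% and NCF1B 22.7%. If all reads given to the copies were counted with NCF1, its base mean would be 1.84 times higher in the knockdown and 1.99 times higher in the inhibition, at the percentiles 55.1 and 49.5. This sum stayed below the base mean of NCF4, whose mRNA is of nearly the same length, in both experiments. The other annotated gene named NCF1B is not part of the sum, so it is not an upper limit for NCF1.

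**Figure D2:**
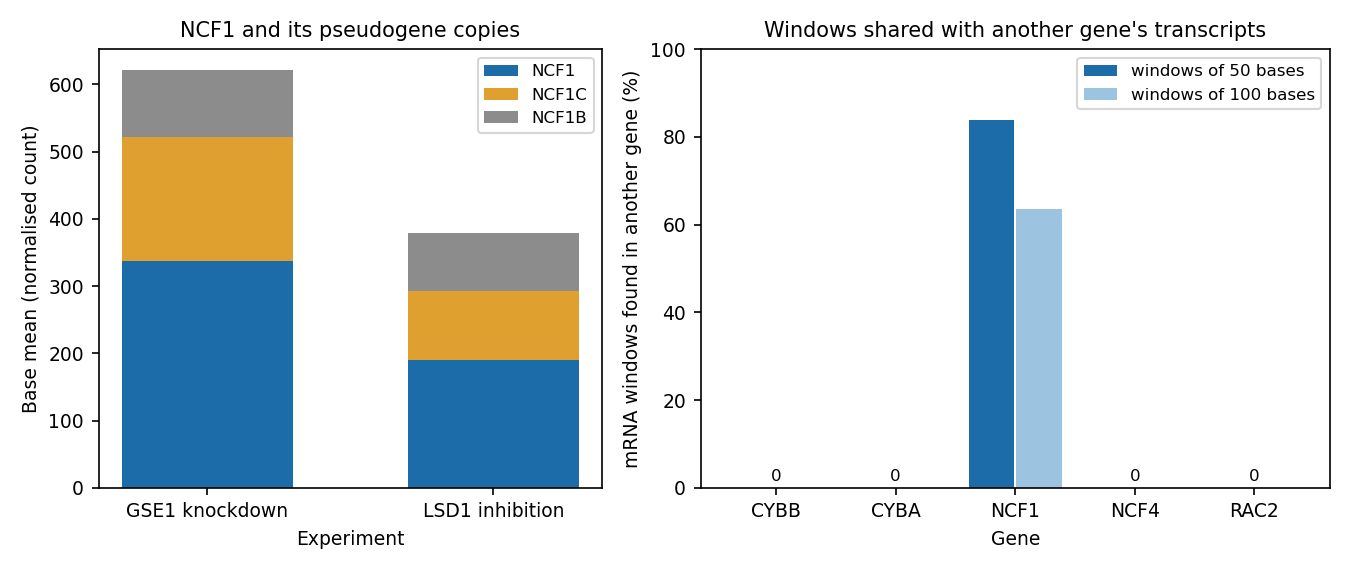
Left, stacked base means (normalised counts, the authors' means over libraries) of NCF1 and its copies NCF1C and NCF1B in each experiment; right, percentage of 50-base and 100-base windows of each member's mRNA that occur in an annotated transcript of another gene. NCF1 makes up 54.4% and 50.3% of the stacks, and it is the only member with shared windows, at 83.9% and 63.5%.

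RAC2 encodes the RAC GTPase of blood cells, which acts on the oxidase in its GTP form. Its base means were 7848 and 8086, at the percentiles 94.5 and 94.6, and they were the closest of any member between the experiments. RAC2 (ENSG00000128340) lies on the reverse strand at chr22:37225270-37259594, with 7 exons, an mRNA of 1472 bases and a coding sequence of 576 bases. Per coding kb it stood at 13625 and 14038, second to CYBA in both experiments, and 4.47 and 5.52 times the level of CYBB.

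The close relatives RAC1 and RAC3, GTPases of the same family, were present with RAC2. RAC1, which is found in nearly all tissues, had base means of 12154.5 and 12319.6, and RAC3 had 1375 and 3366. In pairwise alignment the RAC2 coding sequence was 79.0% identical to that of RAC1 over 566 aligned bases, with 13 further bases in gaps. To that of RAC3 it was 85.0% identical over 567 aligned bases, with 18 further bases in gaps. No window of 50 bases in the RAC2 mRNA was shared with another gene. Of the RAC1 windows, 17.3% also occur in RAC1 pseudogenes, mostly RAC1P2, so part of the RAC1 value is uncertain. The RAC1 level was 1.55 and 1.52 times that of RAC2 per coding kb but 0.987 and 0.971 of it per kb of mRNA. These data therefore do not order RAC1 and RAC2. RAC2 exceeded RAC3 on both scales, by 5.71 and 2.40 times per coding kb and by 4.02 and 1.69 times per kb of mRNA.

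Seen as shares of the summed base mean of the 5 members, CYBA held 44.5% in the knockdown experiment and 58.3% in the inhibition experiment. RAC2 held 28.4% and 23.6%, CYBB 18.9% and 12.7%, NCF4 7.03% and 4.82%, and NCF1 1.22% and 0.558%. With levels per coding kb the share of CYBA was 52.7% and 65.0%, and per kb of mRNA 68.4% and 78.6%. The order CYBA, RAC2, CYBB, NCF4, NCF1 held for base means and per coding kb in both experiments. Per kb of mRNA, CYBB and NCF4 changed places, as the CYBB level was 1.60 and 1.57 times that of NCF4 per coding kb and 0.865 and 0.850 of it per kb of mRNA. With no spread available, neither these neighbours nor any others in the order can be said to differ beyond replicate error.

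**Figure D3:**
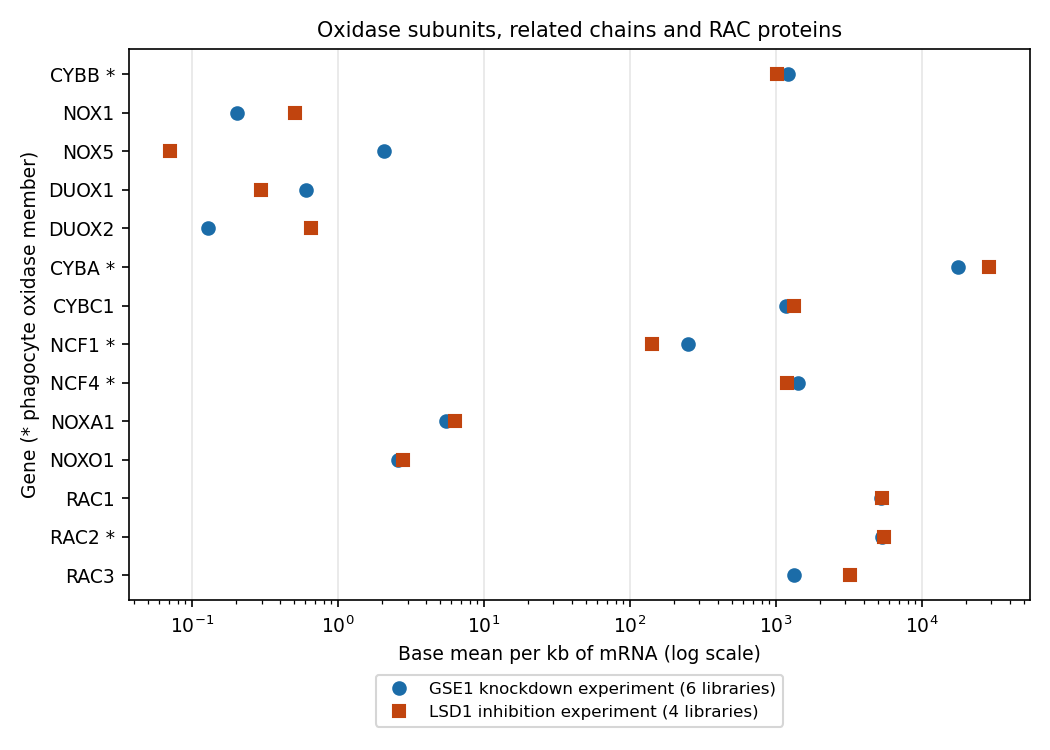
Base mean per kb of mRNA (log axis) of the oxidase members (asterisks), CYBC1, the related catalytic chains and the RAC genes; circles are the knockdown experiment and squares the inhibition experiment, each the authors' mean over libraries with no error. NOX3 and NOX4 were listed at 0 and cannot be drawn. CYBB lies above 1000 in both experiments, while each other catalytic chain lies below 2.1.

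CYBB was the only catalytic chain of the NOX and DUOX family with a level beyond a few counts in both experiments. NOX3 and NOX4 were listed at 0 in both. NOX1 was at 0.517 and 1.29, DUOX1 at 3.33 and 1.63, and DUOX2 at 0.823 and 4.17. NOX5, a chain activated by calcium that needs no cytosolic subunit, was at 17.5 in the knockdown and at 0.598 in the inhibition. The partners of the other chains were as low. NOXA1 and NOXO1, the cytosolic partners of NOX1, were at 8.92 and 3.98 in the knockdown and at 10.3 and 4.29 in the inhibition, and the maturation factors DUOXA1 and DUOXA2 stayed between 0 and 0.678. None of these 6 chains and 4 partners reached the middle of the protein-coding genes in either experiment.

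Genes that act on the oxidase mostly had base means in the upper range. RAP1A, a small GTPase found with the membrane core, had base means of 3029 and 2328. Of 7 genes that control RAC GTPases, 6 in the knockdown and 5 in the inhibition were above the middle of the protein-coding genes in base mean, with median percentiles of 95.4 and 89.1. ARHGDIB and ARHGDIA, which encode inhibitors that hold RAC proteins in the cytosol, had the highest base means, at 32042 and 24321 in the knockdown and at 39541 and 39095 in the inhibition. The ARHGDIB level was 3.90 and 4.67 times that of RAC2 per coding kb, and 5.12 and 6.13 times per kb of mRNA. Among the exchange factors that load RAC with GTP, DOCK2 stood at 11478 and 7232, PREX1 at 9124 and 4682, and VAV1 at 4099 and 2585, whereas VAV3 reached 435 and 226 and TIAM1 only 22.8 and 14.5. In the knockdown VAV3 was at the percentile 50.6 in base mean but at 45.0 per coding kb and 46.7 per kb of mRNA. Its place above the middle there thus depends on length.

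Of 6 kinases known to phosphorylate p47phox, 5 were above the middle of the protein-coding genes in each experiment, with median percentiles of 87.7 and 81.3. The highest base mean was that of PRKCD, of protein kinase C delta, at 10359 and 7406. PAK2 was at 9472 and 5934.5, PRKCB at 7122 and 4092, PAK1 at 2929 and 1975, and PRKCA at 2341 and 1135. PRKCZ, of an atypical protein kinase C, was the exception at 114 and 56.9.

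Genes that handle the charge and the products of the oxidase were all above the middle of the protein-coding genes, with median percentiles of 94.9 and 95.2 over the 5 that could be valued. HVCN1, the proton channel that balances the electron current, stood at 4376 and 4701. The enzymes downstream of superoxide were SOD1 at 8432 and 8823, CAT at 5107 and 3607, GPX1 at 11032 and 11815, and MPO, which makes hypochlorous acid from hydrogen peroxide. The deposited annotation classes GPX1 as a polymorphic pseudogene, so it was placed among protein-coding genes without belonging to that class. The level of MPO per coding kb was 74.4 times that of CYBB in the knockdown and 145 times in the inhibition. Per kb of mRNA these ratios were 129 and 252. SOD2 was given no value, since 2 protein-coding rows carry this symbol and neither identifier is that of SOD2 in GENCODE release 44.

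All 6 transcription factors known for oxidase genes were above the middle, with median percentiles of 86.4 and 85.5. SPI1 (PU.1), which acts on the CYBB promoter in myeloid cells, had the highest base mean, at 7723 and 9239. CEBPA stood at 6502 and 6303, ELF1 at 5543 and 2698, IRF8 at 2949 and 1733, IRF1 at 2295 and 2087, and CEBPE, a factor of late granulocyte maturation, at 2263 and 4998. The housekeeping genes ACTB and GAPDH were at 318081 and 167811 in the knockdown and at 342458 and 191144 in the inhibition.

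Finally, the level of each member in the knockdown experiment was divided by that in the inhibition experiment and placed among 10916 protein-coding genes whose base means were both 50 or more. This ratio sets values of separate normalisations side by side and mixes treatment, vector and time, which cannot be told apart here. Over all genes its median was 1.05, with 5% of genes below 0.647 and 5% above 1.82. RAC2, NCF4 and CYBB were in the middle of the genes, with ratios of 0.971, 1.18 and 1.20 at the percentiles 39.4, 65.0 and 66.9. CYBA was at 0.617, percentile 3.34, and NCF1 at 1.77, percentile 94.3. Neither place is particular to the member, as other named genes lay in the same tails. MPO at 0.614 and CTSG at 0.624 were beside CYBA, and VAV3 at 1.92 and PREX1 at 1.95 were beyond NCF1. Others were near the centre, such as CEBPA at 1.03. These are single ratios of averages with no replicate spread, so whether the members differ in them was not tested. NCF1C gave 1.79 and NCF1B 1.16, and the NCF1 ratio, which rests on the division of reads among these genes, was 1.64 at the percentile 91.6 with both copies added, a sum chosen after seeing the data.

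**Figure D4:**
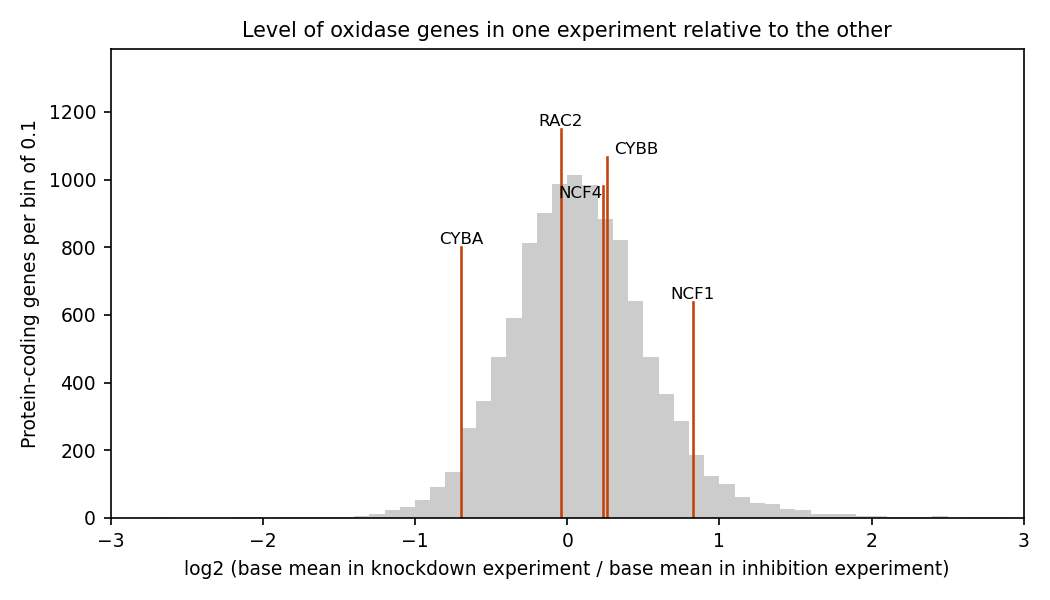
Distribution over protein-coding genes of the log2 ratio of the base mean in the knockdown experiment to that in the inhibition experiment (grey, genes per bin of 0.1), with vertical lines at the 5 members; line heights carry no value. CYBA lies in the lower tail (ratio 0.617), NCF1 in the upper tail (1.77), and RAC2, NCF4 and CYBB near the centre.

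The ratio moved with the length and base composition of the mRNA. Across 10878 of these genes with an annotated mRNA, which share the same libraries and are not independent, Spearman's rho of the ratio was 0.43 with mRNA length and -0.38 with the share of G and C. CYBA is at the percentile 2.22 for length and 99.1 for G and C among these genes. NCF4 and RAC2, with ratios near the median, are also short, at the percentiles 11.6 and 13.3, and NCF1 has a short mRNA, percentile 11.1, that is rich in G and C, percentile 91.0, with a ratio on the opposite side from CYBA. The part of length and composition in these ratios was not tested.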

How the data were processed

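Per the labels and the study's methods, the authors prepared unstranded TruSeq mRNA libraries, aligned them to hg38 (STAR 2.7), estimated gene counts with RSEM and ran DESeq2 on each experiment; the annotation release is not given in the sources used here. The signal used here is the base mean deposited by the authors, the average of size-factor normalised counts in a fit. The tables do not name the libraries averaged; the base mean columns for the 2 hairpins differed in 0 rows, as 1 fit over all libraries gives, and were read so. The other deposited columns hold the authors' own comparisons (log2 fold changes, standard errors, statistics, p-values) of shA1 and shB2 with EV and of MC2580 with DMSO, and were not used. The sample titles shorten the compound name, and the treatment label was followed.

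Percentiles were computed in Python 3.11.15 (pandas 2.3.3) among protein-coding genes with a base mean above 0. Gene locations, lengths and transcripts came from GENCODE release 44 on hg38, to which 60261 of the 60603 genes matched. Windows of 50 and 100 bases were searched in all annotated transcripts on the transcript strand and its complement, and alignments used Biopython 1.88. The percentile calculation was tested on simulated data. A search for shared windows of 50 bases was tested too, but not the version that gave the values here. The alignments, lengths, ratios and exon 2 windows were not tested in this way. The members and gene lists were chosen by known role, with earlier results of these data known. Named genes are the members and the genes of these lists, apart from some that are not reported here.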

Additional observations from a re-analysis of the deposited data

How the results depend on the processing

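No paired analysis was possible because the values used here are averages over libraries and carry no replicate. For the same reason the planned edgeR test was not run. Nor were a DESeq2 fit, a filter on low counts, a replicate block or leaving out each replicate in turn. The depth and the precision of every level are unknown. The median percentile of the 5 members (90.2 in the knockdown, 88.1 in the inhibition) was 94.9 and 93.6 among genes of all types with a base mean above 0, 86.5 and 83.8 among protein-coding genes at 10 or more, and 86.6 and 83.9 with levels per coding kb. Per kb of mRNA, an alternative chosen after seeing the data, it was 86.9 and 84.7. The share of the members' sum held by CYBA (44.5% and 58.3%) was 52.7% and 65.0% per coding kb and 68.4% and 78.6% per kb of mRNA. Adding NCF1B and NCF1C to NCF1 moved that share by less than 1 percentage point, and it moved the base mean of NCF1 from 338 and 191 to 621 and 379.5. Among the single members NCF1 moved most, with percentiles of 28.6 and 23.0 among protein-coding genes at 10 or more and of 72.2 and 68.2 among genes of all types; its place below the middle in base mean (48.0 and 43.3) turned to 50.2 in the knockdown per coding kb, with 44.9 in the inhibition, and to 60.1 and 53.0 per kb of mRNA.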
